A study of Rattus norvegicus with 6 samples.

Results

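Dopamine handling was followed through 9 genes in 3 tissues of tickled rats, namely striatum, salivary glands and the leukocytes of peripheral blood. The genes were taken by symbol, as the array annotation gives it: the synthesis enzymes Th and Ddc, the transporters Slc6a3 and Slc18a2, the less abundant receptors Drd3, Drd4 and Drd5, and the breakdown enzymes Maoa and Maob. They are 9 of 14871 symbols on the array, carried by 13 probes. Of these genes 7 had a value on at least 1 of the 6 arrays, and Slc6a3 and Drd4 had none on any array.

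All samples came from male Wistar rats 60 days of age that had been housed singly from weaning at 21 days. Tickled rats received manual stimulation that mimics play and evokes calls at 50 kHz, light-touched rats received a gentle touch on the same schedule over 4 weeks, and the remaining rats received no stimulus; the labels give no genotype or drug for any group. Each array set Cy5-labelled RNA of tickled rats against Cy3-labelled RNA of a single comparator from the same tissue, so there are 2 arrays per tissue, 1 array per comparison and no dye swap. Each condition had 4 animals per the labels, but the sources used here do not say whether an array holds a pool or a single animal. Arrays are named here by tissue and comparator. The extraction text of every sample names hypothalamus, while the tissue fields name the 3 tissues used here. Values are ratios, so no level of a gene, and no order of levels between tissues or genes, can be read from them.

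Values are log2 ratios of tickled over comparator. The values carry no statement of direction, which was taken from the labelled dyes. With no replicate, no test was possible and precision is limited by the number of arrays. The spread that can be measured is that between probes for the same gene, whose SD had a median of 0.12 and 0.09 in striatum (no-stimulus and light-touch array), of 0.10 and 0.09 in glands and of 0.15 and 0.20 in leukocytes. It covers neither animals nor arrays. Genes with a value made up 73.4% and 72.9% of symbols in striatum, 70.8% and 72.1% in glands and 42.5% and 41.6% in leukocytes; why the others were left blank is not stated in the sources at hand. Of the medium spiny neuron markers, which define the principal striatal neuron, 9 of 9 on the array had a value in striatum, as had 7 of 7 granular duct markers in glands and 7 of 8 T cell markers in leukocytes. Having a value does not set a tissue apart, however: T cell markers had one for 8 of 8 in glands, neutrophil markers for 4 of 8 in leukocytes, and cortical and hypothalamus markers for 8 of 8 and 11 of 14 in striatum.

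Dopamine is made from tyrosine. Tyrosine hydroxylase (Th) makes L-DOPA in the rate-limiting step, and aromatic L-amino acid decarboxylase (Ddc) converts it to dopamine; Ddc also makes serotonin from its precursor. The vesicular transporter VMAT2 (Slc18a2) loads monoamines into vesicles, the dopamine transporter DAT (Slc6a3) returns dopamine from outside the cell, and the monoamine oxidases Maoa and Maob of the outer mitochondrial membrane break it down. Striatum is the main target of midbrain dopamine neurons, whose cell bodies, where most Th and Slc6a3 mRNA lies, are outside it; the mRNA of the synthesis genes within striatum is sparse. In salivary glands Th protein is known in the sympathetic nerve fibres, whose cell bodies also lie outside the gland. Ddc is also known in peripheral epithelia such as those of kidney and gut.

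The windows around the annotated starts of Th, Ddc and Slc18a2 are shown because Th and Ddc had the widest values of the 9 genes and Slc18a2 was the only other member past 1.5-fold. The sequences are from RefSeq, build GRCr8, and run from 250 bases before to 50 bases after a start. All 9 members had such a window, 11 in all, since Ddc has 3 annotated starts; its most upstream start is shown. Capitals mark matches, on either strand, to 5 short motifs: the cAMP response element TGACGTCA, the AP-1 type element TGATTCA, the E-box CAGGTG, the NR4A response element AAAGGTCA and the GC box GGGCGG.
Th, chr1:207508169-207508468, minus strand: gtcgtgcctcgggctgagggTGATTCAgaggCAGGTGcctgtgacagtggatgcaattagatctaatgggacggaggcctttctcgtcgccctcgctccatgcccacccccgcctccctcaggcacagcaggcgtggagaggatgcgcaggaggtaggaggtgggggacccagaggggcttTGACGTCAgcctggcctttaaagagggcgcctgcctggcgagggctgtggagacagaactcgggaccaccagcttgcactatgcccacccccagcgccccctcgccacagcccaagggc
Ddc, chr14:90682734-90683033, minus strand: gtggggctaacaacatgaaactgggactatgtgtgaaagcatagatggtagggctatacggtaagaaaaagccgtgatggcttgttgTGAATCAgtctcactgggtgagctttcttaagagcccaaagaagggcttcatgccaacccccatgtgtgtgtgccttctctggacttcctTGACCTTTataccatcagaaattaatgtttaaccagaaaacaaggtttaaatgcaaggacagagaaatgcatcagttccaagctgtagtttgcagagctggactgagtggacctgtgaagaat
Slc18a2, chr1:268399771-268400070, plus strand: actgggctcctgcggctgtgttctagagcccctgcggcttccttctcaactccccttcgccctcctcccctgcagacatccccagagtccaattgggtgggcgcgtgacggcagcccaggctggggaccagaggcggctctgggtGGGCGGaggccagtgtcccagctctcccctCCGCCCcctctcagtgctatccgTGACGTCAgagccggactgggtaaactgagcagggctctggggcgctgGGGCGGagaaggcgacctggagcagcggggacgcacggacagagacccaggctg

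The cAMP response element stood in the windows of Th, at bases -69 to -62 from the start, and Slc18a2, at -52 to -45, so in 2 of 11 member windows against 1.83% of the 33469 windows of all genes. Th also held the AP-1 type element (2.88% of all windows) at -230 to -224 and the E-box (18.8%) at -219 to -214. The window of Ddc held the reverse complement of the AP-1 type element at -163 to -157 and that of the NR4A element (1.43%) at -73 to -66. The other 2 windows of Ddc held none of the 5 motifs. The GC box was in 6 of 11 member windows, those of Slc6a3, Slc18a2, Drd4, Drd5, Maoa and Maob, against 33.1% of all windows. In the windows shown no matches overlapped, and in the window of Drd4 a pair of GC boxes shared a base. These are matches of letters only. The 5 motifs were chosen after the windows had been read, so the shares cannot show that a motif is enriched here.

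In striatum, both synthesis genes were somewhat higher in the tickled sample, most over no stimulus, where the receptors and breakdown genes lay nearer to 0; over light touch the receptor Drd3 had a value like theirs. For Th the log2 ratio over no stimulus was 0.50, 1.42-fold higher, and that over light touch 0.23, 1.17-fold higher. Ddc had 0.43 and 0.24, which is 1.35-fold and 1.18-fold higher. Th and Ddc differed from each other by 0.08 on the no-stimulus array and by -0.01 on the light-touch array (Th minus Ddc), less than the median SD between probes. Among all genes valued on the no-stimulus array, 2.18% lay at least as far from 0 as Th and 3.70% as far as Ddc. On the light-touch array these shares were 11.5% and 10.2%. Each of the 2 genes rests on a single valued probe, and the second probe of Ddc was blank on every array. The 2 arrays of a tissue both carry tickled RNA, so they are not independent. As these are whole-tissue samples, a change in the number of cells of a type and a change in RNA per cell cannot be told apart.

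The receptor Drd3, a D2-like receptor found mainly in the ventral striatum, had 0.08 on the no-stimulus array and 0.23 on the light-touch array. Drd5, a D1-like receptor, had -0.02 and 0.05. Drd4, the remaining D2-like receptor of the group, had no value. Of these values, only that of Drd3 over light touch lay further from 0 than the median SD between probes, and 11.6% of genes lay at least as far out on that array.

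Maoa, whose enzyme prefers serotonin and noradrenaline, was measured by 2 probes in striatum. They gave 0.06 and 0.03 over no stimulus and -0.07 and -0.06 over light touch, so they differed by less than the median SD between probes, and the gene's medians were 0.04 and -0.06. Maob, whose enzyme is abundant in astrocytes and serotonergic neurons, had 0.12 and 0.13. The transporter genes Slc6a3 and Slc18a2 had no striatal value.

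By count, 0 of the 6 valued members were 1.5-fold or more (0.585 in log2) higher in tickled striatum over no stimulus, where 0.485% of all genes were, and 0 were lower, against 0.787%. Over light touch 0 of 6 were higher and 0 lower, against 0.812% and 0.545% of all genes. At a lower limit of 0.322 in log2, Th and Ddc were counted as higher over no stimulus, 2 of 6 against 3.65% of all genes. Scaling the arrays to 1 spread put Th past 1.5-fold over no stimulus (0.60), and reading the values as natural logs put both there (0.73 and 0.62). Each setting widens every value on that array, and the share of all genes past 1.5-fold under it is not given. The same scaling raised the light-touch values of Th, Ddc, Drd3 and Maob to 0.41, 0.44, 0.41 and 0.23. The median of the 6 members was 0.10 on the no-stimulus array and 0.18 on the light-touch array, beside -0.02 and -0.00 for all genes.

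**Figure D1:**
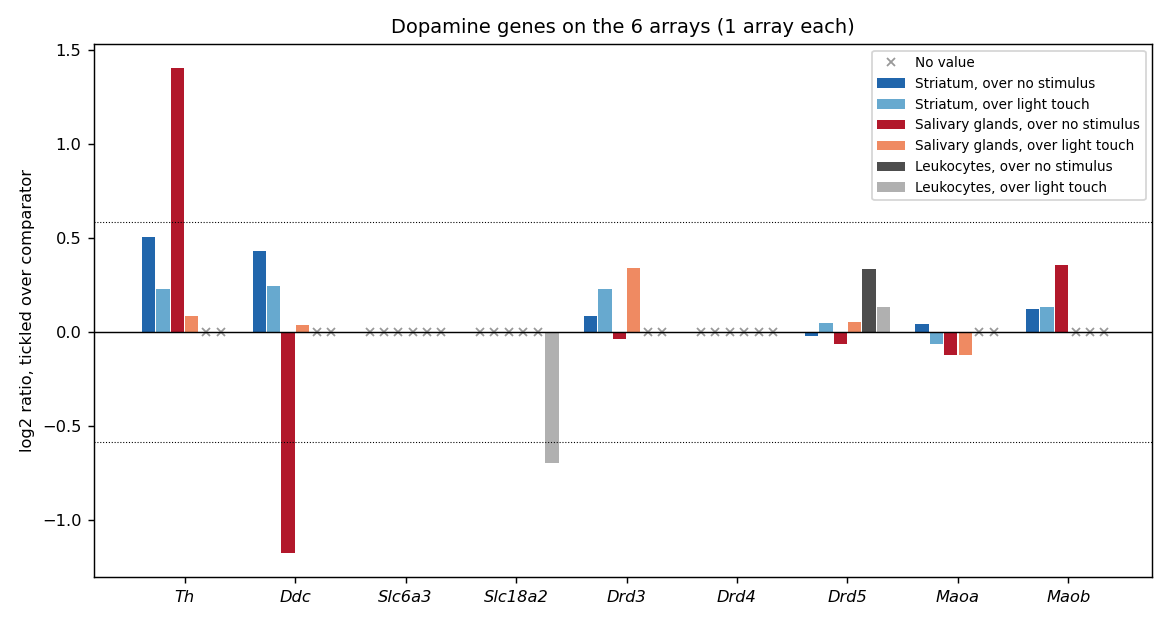
Log2 ratio of tickled over comparator (vertical axis) for each of the 9 genes (horizontal axis) on the 6 arrays, 1 bar per array; crosses mark arrays with no value and dotted lines mark 1.5-fold. Th stands at 1.40 and Ddc at -1.18 on the salivary no-stimulus array, while no striatal bar reaches a dotted line and Slc6a3 and Drd4 have no bar.

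In salivary glands, Th and Ddc lay on opposite sides of 0 on the no-stimulus array and near 0 on the light-touch array. Th was at 1.40 over no stimulus, 2.65-fold higher in the tickled sample, and 0.08 over light touch. Ddc had -1.18 over no stimulus, 2.26-fold lower, and 0.03 over light touch. Their difference (Th minus Ddc) was 2.58 on the no-stimulus array and 0.05 on the other, beside median SDs between probes of 0.10 and 0.09. Of all genes on the no-stimulus array, 0.836% lay at least as far from 0 as Th and 1.41% as far as Ddc; on the light-touch array the shares were 53.4% and 79.7%.

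The other gland values were smaller. Maob was at 0.36 over no stimulus with no value over light touch, and Drd3 had -0.04 and 0.34. The 2 probes of Maoa gave -0.11 and -0.13 over no stimulus and -0.10 and -0.15 over light touch, with gene medians of -0.12 and -0.13. Drd5 had -0.07 and 0.05. On the respective arrays, 14.1% of genes lay at least as far from 0 as Maob over no stimulus and 6.62% as far as Drd3 over light touch.

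Of the 6 members valued on the salivary no-stimulus array, 1 was 1.5-fold or more higher (Th) and 1 was lower (Ddc), where 2.94% and 2.74% of all genes were. Both also passed 2-fold, where 0.931% of all genes were higher and 1.02% lower. At the limit of 0.322 Maob was added as higher, 2 of 6 against 8.33%, and Ddc was the member counted as lower, against 8.27%. On the light-touch array 0 of 5 were 1.5-fold higher and 0 lower, against 0.877% and 0.747%; at the limit of 0.322 Drd3 was counted as higher, against 3.71%, and scaling to 1 spread gave it 0.53. The members' medians were -0.05 and 0.05, beside -0.01 and -0.00 for all genes.

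Other genes of the gland differed on the same no-stimulus array, where 2.94% of all genes were 1.5-fold higher and 2.74% lower. Markers of the granular ducts, which secrete kallikreins and growth factors, were 1.5-fold higher for 7 of 7 valued members, with a median of 3.03 and a range from 0.82 to 3.73. The highest were the kallikrein genes Klk1c9 (3.73), Klk1c2 (3.62) and Klk1c12 (3.08), close paralogs whose separate values are uncertain, and the prohormone gene Smr3b (3.03). Adipocyte markers were lower for 3 of 5, with a median of -1.11 and a range from -1.68 to 0.13; these were Car3 (-1.68), the adiponectin gene Adipoq (-1.52) and the resistin gene Retn (-1.11). Of 4 parotid acinar markers Car6 was higher (0.59), and the amylase gene Amy1 (-1.47) and Bpifa2 (-0.59) were lower. Over light touch the medians of these lists were -0.19, 1.33 and 0.71. Sympathetic neuron markers had 4 valued genes of 7 on the array, between -0.10 and 0.01 over no stimulus, with 0 past 1.5-fold; Dbh, the enzyme that makes noradrenaline from dopamine, had no gland value and Slc6a2, the noradrenaline transporter gene, had -0.10. The part of duct, fat or acinar genes in the values of Th and Ddc was not tested.

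**Figure D2:**
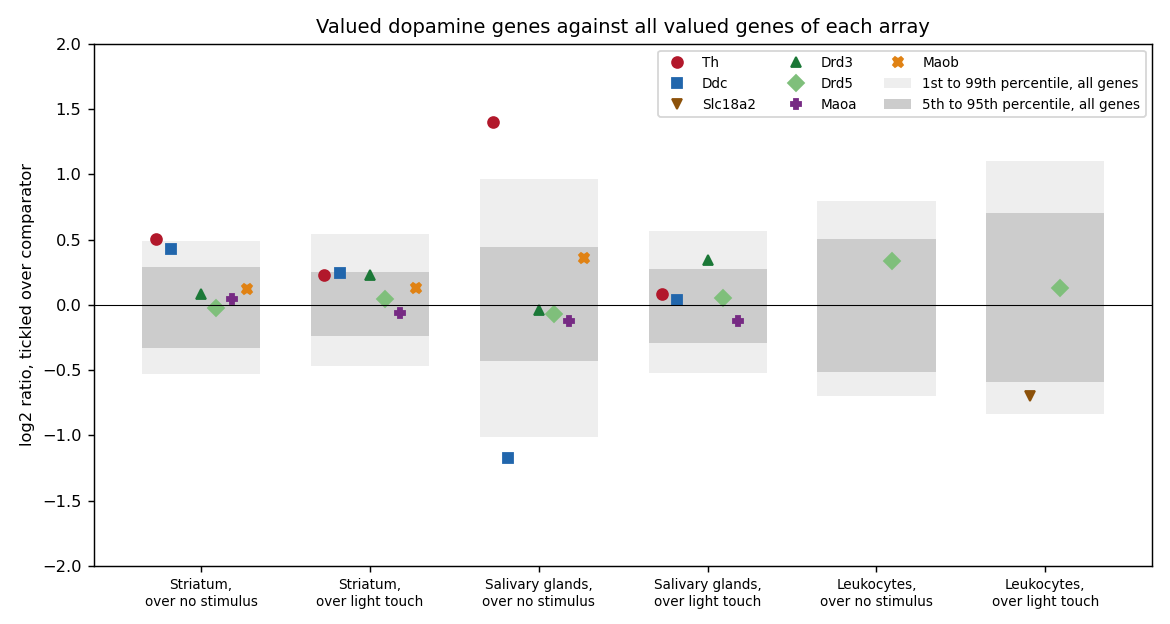
Log2 ratios of the 7 valued dopamine genes (symbols) on each array (horizontal axis) over bands that hold the 5th to 95th and 1st to 99th percentiles of all valued genes. Th and Ddc lie outside the wider band of the salivary no-stimulus array, -1.01 to 0.96, and Th lies just outside that of the striatal no-stimulus array, whose upper edge is 0.49.

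In leukocytes, few of the genes had a value. Drd5 had 0.33 and 0.13 over no stimulus and light touch, and 26.3% and 71.7% of genes lay at least as far from 0. Slc18a2 had -0.70 over light touch, 1.62-fold lower in the tickled sample, and no value over no stimulus; its second probe was blank on every array. On the light-touch array 7.62% of genes lay at least as far from 0 as Slc18a2. Over no stimulus, 0 of 1 valued member was 1.5-fold higher or lower, against 3.21% and 2.9% of all genes, and at the limit of 0.322 Drd5 was counted as higher, against 13.4%. Over light touch 0 of 2 were 1.5-fold higher, against 8.09%, and 1 of 2 was lower, against 5.06%. At the limit of 0.322 that share of all genes was 17.7% and Slc18a2 was still the member counted; at 2-fold it was not, against 0.275%. Scaling the arrays to 1 spread gave Slc18a2 -0.40, short of 1.5-fold.

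Slc18a2 is known in platelets, mast cells and basophils. On the leukocyte light-touch array 3 of 6 valued platelet markers were 1.5-fold lower, Clec1b (-1.13), Ppbp (-0.77) and Pf4 (-0.64). Gp9 (-0.22), Treml1 (-0.02) and Gp1bb (0.07) were not, and the list ranged from -1.13 to 0.07. Of all genes on that array, 5.06% were 1.5-fold lower and 8.09% higher. Of 5 valued mast cell and basophil markers 2 were lower, Cma1 (-0.94) and Cpa3 (-0.65), and Tpsab1 was higher (0.74); Fcer1a and Ms4a2, receptor subunits for IgE, had no value on any array. Their part in the value of Slc18a2 was not tested.

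Other genes of dopamine biology, 44 of 51 listed being on the array, were compared on the same arrays. They were listed with earlier results of these data known, so their shares beside those of all genes are descriptive only. In striatum 2 of 34 valued genes were 1.5-fold higher over no stimulus and 2 lower, which is 5.88% each way against 0.485% and 0.787% of all genes. Over light touch 0 of 35 were higher and 2 lower, or 5.71% against 0.545% of all genes. Kcnj6 and Nr4a2 were the genes that were lower. Kcnj6, the potassium channel subunit GIRK2 of many dopamine neurons, had -0.86 and -1.08. Nr4a2, a nuclear receptor needed to make midbrain dopamine neurons and also induced by activity in cortex, had -0.82 and -0.70. Cortical glutamatergic neuron markers were lower on these arrays as well, with a median of -0.97 on each. Their part in the values of Kcnj6 and Nr4a2 was not tested. Higher over no stimulus were Ret, the signalling receptor for GDNF, with 0.83 (0.27 over light touch), and Aldh1a1, an aldehyde dehydrogenase that oxidises the aldehyde made by monoamine oxidase, with 0.59 (0.28 over light touch).

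The main receptors Drd1 and Drd2 had -0.22 and -0.11 over no stimulus in striatum, and 0.04 and 0.00 over light touch. None of 10 valued genes of dopamine receptor signalling passed 1.5-fold on either striatal array, and Ppp1r1b, which encodes DARPP-32, had the value furthest from 0, -0.42 over no stimulus. Among genes for the cofactor tetrahydrobiopterin, which Th requires, 0 of 4 valued passed 1.5-fold; Qdpr, which regenerates it, had 0.40 and 0.15, and Gch1, which makes its precursor, had no striatal value. Other monoamine genes had medians of 0.26 over 5 genes and 0.18 over 6, with Slc6a4, the serotonin transporter gene, at 0.27 and 0.42 and Tph2, the serotonin synthesis gene of neurons, at 0.29 and 0.07. Of the dopamine neuron markers, Slc10a4, a solute carrier gene of monoamine and cholinergic neurons, had 0.04 and 0.19, Sncg had -0.00 and -0.14, and the nicotinic receptor genes Chrna6 and Chrnb3 had no value on any array.

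Markers of neighbouring regions and other cells differed on the striatal arrays too. Of all genes, 0.485% were 1.5-fold higher and 0.787% lower over no stimulus, and 0.812% and 0.545% over light touch. Cortical glutamatergic neuron markers were 1.5-fold lower for 6 of 8 over no stimulus and 7 of 8 over light touch. Their medians were -0.97 on each array, with ranges from -1.31 to 0.10 and from -1.13 to -0.02. Bdnf, a neurotrophin gene, was at -1.31 and -0.99, and the transcription factor gene Tbr1 at -1.26 and -0.96. The glutamate transporter gene Slc17a7 was at -1.20 and -1.13, and the peptide gene Cck at -1.06 and -1.01. Lamp5 lay near 0, at 0.10 and -0.02. Hypothalamus markers were higher for 2 of 11 and 3 of 11, with medians of 0.16 and 0.15 and ranges from -0.50 to 1.08 and from -0.21 to 0.77. Over no stimulus the higher ones were Oxt (1.08) and Avp (0.78), and over light touch Gal (0.77), Avp (0.73) and Hdc (0.69). The lowest on each array was Pmch (-0.50 and -0.21), and 8 and 9 of the 11 lay above 0. Crh, Agrp and Sim1 had no striatal value. Some hypothalamic neurons are known to express Th and Ddc. Astrocyte markers had 0 of 8 past 1.5-fold and medians of 0.23 and 0.04, with the glutamate transporter gene Slc1a2 at 0.36 and -0.05 and Gfap at 0.30 on each array. The part of these lists in the values of Th, Ddc and Maob was not tested.

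In glands, 2 of 27 valued pathway genes were 1.5-fold higher over no stimulus (7.41%, against 2.94% of all genes) and 1 lower (3.70%, near the 2.74% of all genes). Over light touch 0 of 26 passed each way, against 0.877% and 0.747%. Nr4a2 had 0.66 and -0.25, and Slc22a3, a low-affinity monoamine transporter gene, had 0.59 and 0.07. Sncg, which encodes gamma-synuclein and is known in neurons and fat, had -0.999 and 0.24. In leukocytes 0 of 15 passed over no stimulus, against 3.21% and 2.9% of all genes, and 1 of 13 was higher over light touch (7.69%), the adenosine receptor gene Adora2a with 0.66; 8.09% of all genes were higher there, so the share was no more than the background.

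**Figure D3:**
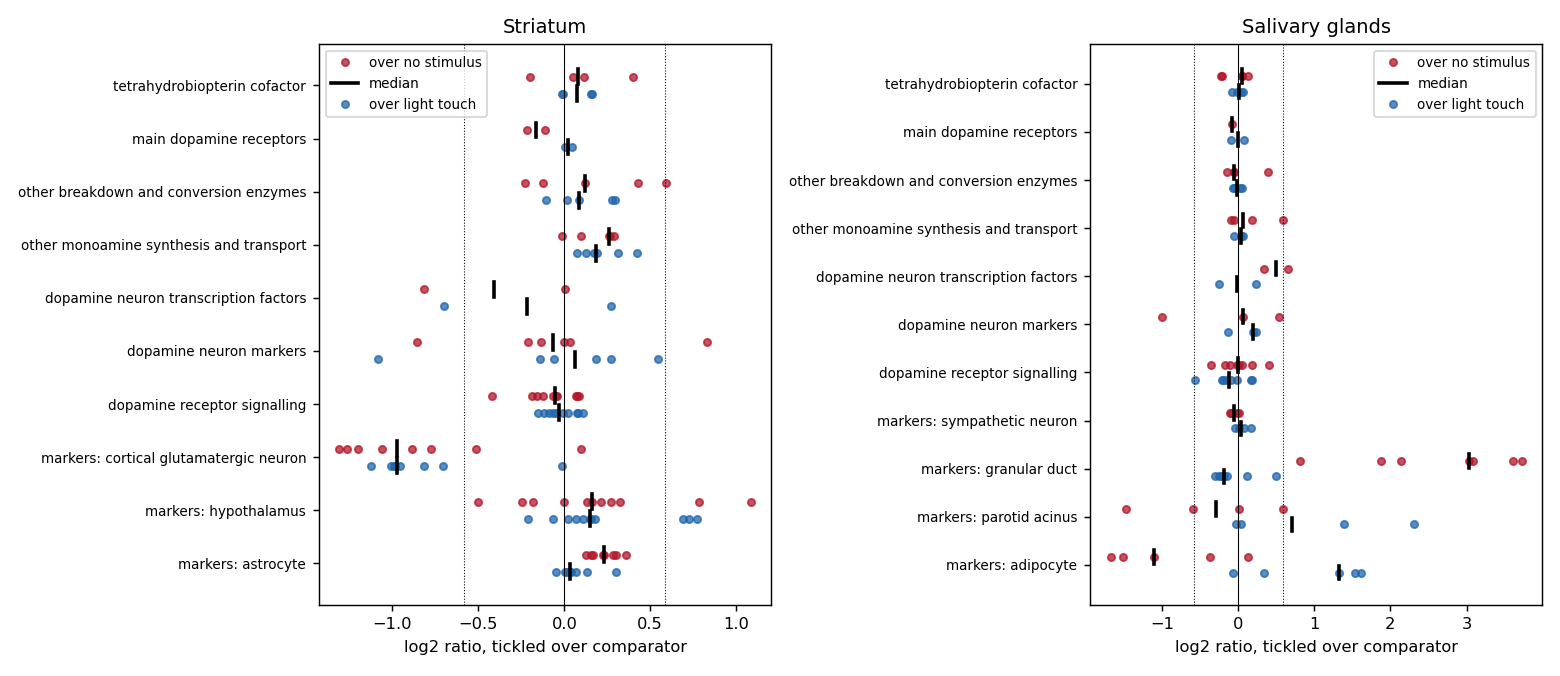
Log2 ratios of tickled over comparator (horizontal axis) for genes of each list (vertical axis) in striatum and salivary glands, 1 point per gene, with the list median as a black tick and dotted lines at 1.5-fold. In striatum over no stimulus, the medians of the dopamine lists lie between -0.41 and 0.26, with single genes from -0.86 to 0.83. The median of cortical neuron markers is -0.97 there, and in glands granular duct markers reach 3.73 over no stimulus.

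Genes were ranked by root mean square difference from a member over the 4 arrays of striatum and glands. A like pattern on these arrays therefore follows from the choice. Symbols that are only a LOC or RGD number were left out. Among the 9421 other genes valued on all 4, the nearest to Th were Akr1c15 (0.17), Vgll2 (0.18) and Mobp (0.19). Akr1c15, an aldo-keto reductase gene, had 0.52 and 0.11 in striatum and 1.10 and 0.19 in glands. Vgll2, a transcription cofactor gene of skeletal muscle, had 0.24, 0.05, 1.41 and 0.25 in the same order. Mobp, a myelin protein gene, had 0.22, 0.06, 1.247 and 0.20. The genes nearest to Ddc were F3, the tissue factor gene (0.11), Ppic, which encodes cyclophilin C (0.12), and Creb3l1, a transcription factor gene of secretory cells (0.14). Over no stimulus these 3 genes had -1.21, -1.14 and -1.30 in glands and 0.38, 0.21 and 0.27 in striatum.

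**Figure D4:**
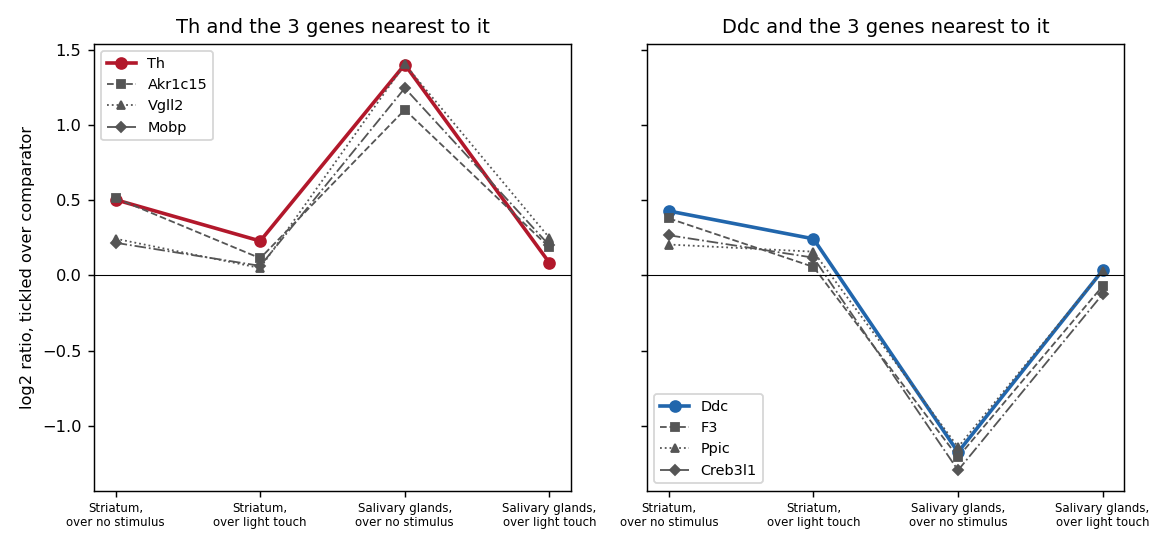
Log2 ratios on the 4 arrays of striatum and salivary glands (horizontal axis) for Th, Ddc and the 3 genes nearest to each; lines only join the values of a gene. The genes near Th peak on the salivary no-stimulus array (1.10 to 1.41) and those near Ddc are lowest there (-1.30 to -1.14). They were picked for likeness on these same arrays, so the shared shape follows from the choice.

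The genes nearest to Drd3, Maoa and Drd5 lay closer. These members had no value as far from 0 as those of Th and Ddc in glands over no stimulus, and genes are denser near 0. A smaller difference is therefore no sign of a closer likeness. Over 4 arrays, Slco4a1, Gtf2a1 and Thnsl2 were within 0.04 to 0.05 of Drd3, and Stk40, Mrpl54 and Glyctk were 0.02 from Maoa. Over all 6 arrays and 5487 genes, with the same symbols left out, Zfp870, Cpsf1 and Tlr7 were 0.03 to 0.04 from Drd5.

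No array set light touch against no stimulus directly. The difference of the 2 arrays of a tissue gives it only if both carry the same tickled extract, a point the sources used here do not settle. On that reading Th was 1.32 higher in light-touched than in unstimulated glands, 2.50-fold, and Ddc was at -1.21, 2.31-fold lower, with 0.822% and 1.11% of 10344 genes at least as far from 0. Drd3 had -0.38 in glands, and Drd5 and Maoa had -0.12 and 0.00. In striatum Th had 0.27 and Ddc 0.18, Drd3 had -0.15, and Maoa, Drd5 and Maob lay between -0.07 and 0.10. Drd5 in leukocytes had 0.20.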

How the data were processed

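RNA of 3 tissues was measured on 6 Agilent 2-colour rat arrays of 44290 features; 500 ng of total RNA entered labelling, per the labels. The log2 ratios are the authors' deposited values, 1 per feature and array; Agilent Feature Extraction 9.1 is listed in the submitters' processing notes, and how values were normalized, their log base and when they were left blank are not stated there. Base 2 was assumed: the largest absolute value, 7.75, makes base 10 implausible, while natural logs are not excluded and would multiply every value by 1.44. The lowest Pearson correlation between any pair of arrays over features was -0.00; this does not settle the direction, since tissues differ and arrays of a tissue share tickled RNA.

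Features were named through the platform annotation and updated through RefSeq (GRCr8): 23535 had 1 symbol and were used, 48 had several and 20707 none; 23488 matched by Entrez identifier and 1 symbol changed. Probes of a gene were summarised by their median. Genes were counted at 1.5-fold with no test. Named were all 9 members, genes past 1.5-fold (at most 4 a list) of each list described by its values, or otherwise the 1 or 2 furthest from 0 (some marker lists are given only as counts or left out, so the rule was followed in part), and the 3 genes nearest to each member valued on at least 4 arrays; Drd1, Drd2, Tph2, Slc10a4, Sncg, Gch1, Chrna6, Chrnb3, Dbh, Slc6a2, Fcer1a and Ms4a2 were named for their roles, outside this rule. The members and lists were chosen with earlier results of these data known, and the 5 motifs after the windows had been read. Counting and ranking were tested on simulated data. Alternatives were other probe summaries, centring, scaling, natural logs, features with several symbols, counts at 0.322 in log2 and at 2-fold, genes valued on both arrays, and differences per probe. Python 3.11.15, pandas and numpy were used.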

Additional observations from a re-analysis of the deposited data

Results flagged for a closer look

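Ddc lay on opposite sides of 0 in 2 tissues under the same comparison, each by more than 0.322 in log2: over no stimulus it had 0.43 in striatum and -1.18 in salivary glands, a difference of 1.60 (striatum minus glands). Each value is from 1 array and the same single probe, and the difference was not tested. Over light touch the values were 0.24 and 0.03. No other member met this description in any pair of tissues.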

How the results depend on the processing

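All 156 values of single members under 6 alternatives kept their sign, but 18 moved by more than the median SD between probes with scaling to 1 spread or natural logs. Scaling raised the light-touch values of Th, Ddc, Drd3 and Maob in striatum to 0.41, 0.44, 0.41 and 0.23 and that of Drd3 in glands to 0.53. In glands over no stimulus, scaling moved Th from 1.40 to 1.60 and Ddc from -1.18 to -1.34. Natural logs gave 2.03 and -1.70 there. Of 84 differences between the arrays of a tissue 83 kept their sign, the exception being Maoa in glands at -0.01 with the smallest probe. Their sizes were less fixed. In glands the difference for Th went from 1.32 to 1.48 with scaling and 1.90 with natural logs. That for Ddc went from -1.21 to -1.40 and -1.75. Scaling took Drd3 from -0.38 to -0.57 in glands and from -0.15 to -0.31 in striatum. The member counts at 1.5-fold were the same under the mean or smallest probe, centring, and added features with several symbols. In striatum over no stimulus the count of members higher was 0 as reported and 2 at a limit of 0.322 in log2. It was 1 with arrays scaled to 1 spread and 2 with natural logs. Both of these settings widen every value on that array, and the share of all genes past 1.5-fold under them is not given. At the limit of 0.322 the count higher also moved to 2 in glands over no stimulus, 1 in glands over light touch and 1 in leukocytes over no stimulus. The count lower in leukocytes over light touch was 1 as reported and 0 with scaling and 0 at 2-fold. The members' median in striatum over light touch became 0.32 with scaling. In leukocytes over light touch it turned from -0.28 over 2 genes to 0.13 over genes valued on both arrays, which leaves Drd5 alone. No paired analysis was possible because each comparison has 1 array. Signal over background was not used here, so how dim a blank or valued probe was is unknown; 5 of the 13 probes gave no value on any array.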

Other observations

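Th lies next to the insulin gene Ins2 and close to Igf2, which encodes insulin-like growth factor 2, in the RefSeq gene order of chromosome 1. The values of the neighbours were looked up after those of Th had been seen. In striatum Igf2 was at 0.59 over no stimulus and at 0.23 over light touch, beside 0.50 and 0.23 for Th, and 0.45 and 0.40 in glands, beside 1.40 and 0.08. Ins2 had a single value, 0.60 in glands over light touch, and Ascl2, the neighbour on the other side, had -0.12 and -0.04 in striatum and -0.09 and -0.14 in glands. Maoa and Maob are neighbours on chromosome X, and the gene beyond Maob, Ndp, which encodes the secreted protein norrin, was at 0.83 over no stimulus and at -0.29 over light touch in glands, beside 0.36 and no value for Maob. In striatum Ndp had 0.27 and -0.01, beside 0.12 and 0.13 for Maob. On the other side of Maob in glands, Maoa had -0.12 and -0.13 and Cask, further along, -0.34 and -0.12.

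Oxt, the oxytocin gene, was noticed among the hypothalamus markers after its values were seen. In striatum it was at 1.08 over no stimulus and at 0.15 over light touch, and 1.42 and 0.10 in glands, on a single probe. The values of Th in the same order were 0.50, 0.23, 1.40 and 0.08. Avp, the vasopressin gene, had 0.78 and 0.73 in striatum and no value in glands.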
